A study of Danio rerio with 8 samples.

Results

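The genes of the mitochondrial ribosome, of protein import into mitochondria and of the mitochondrial carrier family were compared between resected and control zebrafish ventricles. Members were all probe sets with a single gene symbol in the platform annotation whose symbol begins with mrpl or mrps and a digit, with timm or tomm, or with slc25a. The rule found 119 probe sets, for 103 genes, among 15502 probe sets, of which 10795 had a single symbol. The mrp group held 69 probe sets for 59 genes, the timm and tomm group 21 probe sets for 19 genes, and the slc25a group 29 probe sets for 25 genes. A gene table of zebrafish lists 161 genes under these prefixes, so 103 of them were measured here. The rule itself used symbols and no expression value, but it was set with earlier results of these data known.

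RNA came from heart ventricles of Danio rerio and was hybridised to an Affymetrix zebrafish array, with 4 resected samples and 4 control samples. The resected samples were pools of 50 ventricles taken 2 weeks after resection, in which part of the ventricle is removed by surgery, and the control samples were pools of 50 control ventricles at the same time. Strain, age and genotype of the fish, and what was done to the control animals, are not given in the sources used here. Values are the deposited RMA expression values on a log2 scale, on which a difference of 1 is a doubling, and array medians lay between 5.78 and 5.82. A pool averages its animals, so the spread between arrays says nothing about single fish.

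Mitochondria make a small set of inner-membrane proteins on their own ribosomes, whose large-subunit (mrpl) and small-subunit (mrps) proteins are encoded in the nucleus. These and nearly all other mitochondrial proteins are made in the cytosol and enter through the TOM complex of the outer membrane, then through the TIM23 complex to the matrix and inner membrane or, with the help of small TIM chaperones, through the TIM22 complex into the inner membrane. The slc25a proteins sit in the inner membrane and exchange nucleotides, phosphate, organic acids, amino acids and cofactors between matrix and cytosol, and in heart muscle the ATP/ADP exchangers link respiration to contraction.

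Among the 119 probe sets, 7 passed the threshold, an adjusted p under 0.05 by limma over all 15502 probe sets. They belong to 6 genes. Transcripts of the ribosomal protein genes mrpl15 and mrpl2 and of the carrier genes slc25a4, slc25a1a and slc25a43 fell in resected ventricles. Those of the carrier gene slc25a14 rose on 2 of its 3 probe sets. Of all probe sets, 6.85% passed the threshold, 4.28% as higher and 2.57% as lower in resected ventricles. The members' shares, 2 higher and 5 lower of 119, are to be read against these. In whole ventricle, fewer cells of a type and less RNA per cell cannot be told apart.

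**Figure D1:**
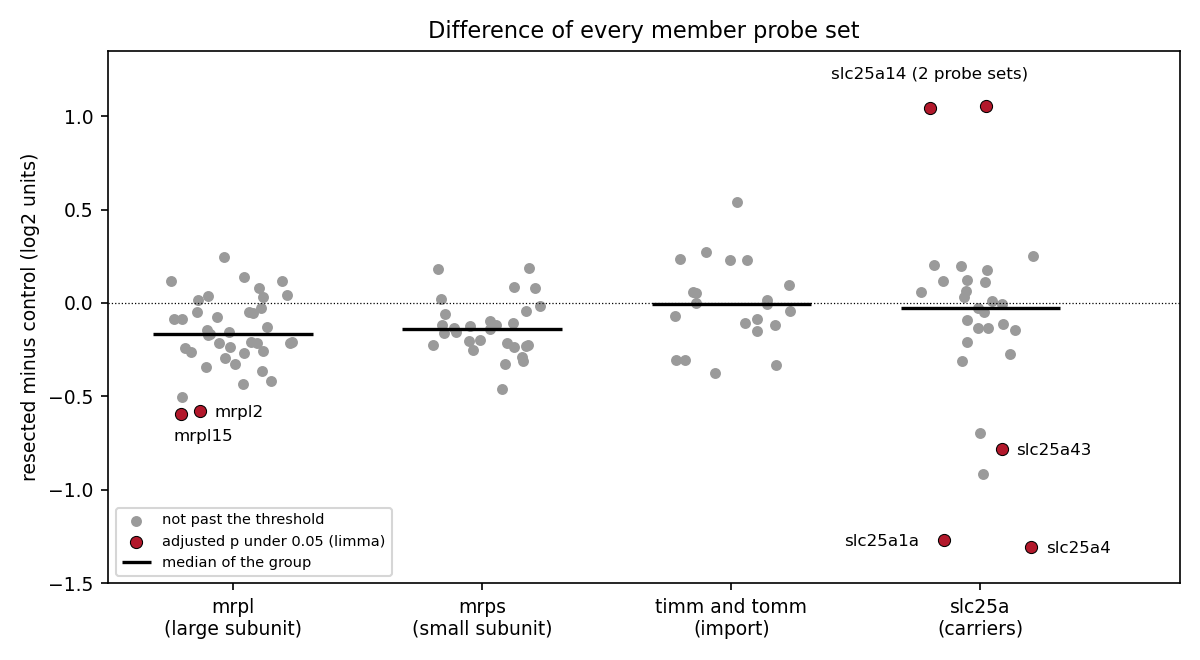
Difference of each of the 119 probe sets, resected minus control, in log2 units, by group, with the group median as a bar and the 7 probe sets past the threshold in red. Medians lie at -0.17 for mrpl, -0.14 for mrps, -0.01 for timm and tomm and -0.03 for slc25a. The probe sets farthest from 0 are all slc25a genes, and on the upper side they are slc25a14 probe sets with low mean values.

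Markers of other cells differed between the groups, and their part in the results on the mitochondrial genes was not tested. Red cell markers passed the threshold as higher for 7 of 9 genes, with array means of 0.93 to 1.85 in resected and -0.22 to 0.14 in control samples, relative to the control mean in log2 units. Leukocyte markers were higher for 4 of 11, with array means of 0.55 to 1.03 in resected and -0.46 to 0.69 in control samples. Fibroblast and epicardial markers were higher for 5 of 7 (1.79 to 1.93 in resected, -0.14 to 0.17 in control samples). Not past the threshold in that list were the epicardial genes tbx18 (0.21 ± 0.09) and wt1a (-0.14 ± 0.09). Fast skeletal muscle markers were higher for 7 of 10 (0.81 to 1.39 in resected, -0.12 to 0.13 in control samples). Those not past the threshold were ckmb (-0.36 ± 0.22), ckma (0.05 ± 0.09) and tnni2a.4 (0.10 ± 0.10). Of these, ckma had high means in both groups, 13.33 in resected and 13.28 in control samples. Endothelial markers were higher for 1 of 4, with array means of -0.15 to 0.03 in resected and -0.17 to 0.08 in control samples. The 1 was cldn5a (0.42 ± 0.08), at low means of 3.90 in resected and 3.48 in control samples. Lower means in resected samples, not past the threshold, were those of kdrl (-0.41 ± 0.15), tek (-0.17 ± 0.12) and tie1 (-0.08 ± 0.10). Cardiomyocyte markers were present, as the heart label gives: the cardiac myosin light chain myl7 averaged 13.99 ± 0.08 in resected and 14.04 ± 0.08 in control samples (SD, n = 4 each). None of the 5 measured cardiomyocyte markers passed the threshold, and their array means were -0.25 to -0.04 in resected and -0.05 to 0.02 in control samples. All 5 had a lower mean in resected samples (60.4% of all probe sets did), from -0.36 ± 0.14 for ldb3a to -0.04 ± 0.08 for tnnc1a. The difference between 3' and 5' control probe sets is commonly used as a sign of RNA quality. For the actin acta1 it was -1.74 to -1.46 in resected and -2.30 to -1.98 in control samples, so the groups did not overlap. For GAPDH it was 0.80 to 1.05 in resected and 0.77 to 1.07 in control samples, so there the groups overlapped. Values below 0 mean a higher signal at the 5' end, so acta1 alone does not tell whether RNA quality differed. The part of this in the results was not tested.

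Transcripts for proteins of the mitochondrial ribosome were on average slightly lower in resected ventricles, and few passed the threshold. Of 69 mrp probe sets, 55 (79.7%) had a lower mean in resected samples, against 60.4% of all probe sets, with a median difference of -0.16, against -0.05 over all probe sets. The interquartile range was -0.24 to -0.05, and the whole range between -0.59 and 0.25. The threshold was passed by 2 probe sets as lower and by 0 as higher (2.57% and 4.28% over all probe sets). At an unadjusted p under 0.05 limma gave 18 lower and 0 higher, where 11.8% of all probe sets were lower and 11.3% higher. The 4 resected values lay below all 4 control values for 10 probe sets (14.5%, against 7.35% of all probe sets) and above them for 0 (against 6.95%).

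The large and the small subunit had similar median shifts, and the difference between them was not tested. In the large subunit, 31 of 40 probe sets had a lower mean in resected samples, with a median difference of -0.17. In the small subunit the count was 24 of 29, with a median of -0.14. Of the 10 probe sets whose groups did not overlap, 9 were of the large subunit and 1, for mrps31, of the small subunit. These make up 22.5% of the large-subunit and 3.45% of the small-subunit probe sets, against 7.35% of all probe sets. Those of the large subunit were mrpl15, mrpl2, mrpl23, mrpl52, mrpl44, mrpl9, mrpl32, mrpl4 and mrpl40.

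The largest difference among the mrp genes was that of mrpl15, for a large-subunit protein. On the 4 resected arrays mrpl15 had 8.78, 8.74, 8.79 and 8.90, against 9.43, 9.05, 9.67 and 9.44 on the 4 control arrays. All resected values were below all control values, and the control values were more spread. The means were 8.80 ± 0.07 in resected and 9.40 ± 0.26 in control samples (SD, n = 4 each), a difference of -0.59 ± 0.12 (SE of the limma fit), or 1.51-fold lower, with an adjusted p of 0.0174. The call was lost without resected replicate 2 (adjusted p = 0.0595), resected replicate 3 (0.0512) or control replicate 4 (0.0538), all by limma.

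The second ribosomal protein gene to fall was mrpl2, whose protein sits at the heart of the large subunit, next to its catalytic centre. It had 9.10, 8.79, 8.93 and 9.06 on the resected arrays and 9.55, 9.20, 9.79 and 9.65 on the control arrays. The groups did not overlap. The difference was -0.58 ± 0.13 (limma, 95% interval -0.87 to -0.29, adjusted p = 0.0253), or 1.49-fold lower. It missed the threshold without resected replicate 2 or 3 (adjusted p = 0.0833 and 0.0717 by limma) and without control replicate 1, 3 or 4 (0.0513, 0.0567 and 0.0758).

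Just past the threshold on the other side lay mrpl23, with 9.23, 9.34, 9.15 and 9.51 in resected and 9.73, 9.53, 9.95 and 9.69 in control samples (difference -0.42 ± 0.11, adjusted p = 0.0507 by limma). Its groups did not overlap either. Of the other members with small p, mrpl19 differed by -0.43 ± 0.13, mrps10 by -0.31 ± 0.09, mrpl52 by -0.50 ± 0.16 and mrps31 by -0.46 ± 0.15, with adjusted p-values of 0.0664, 0.0762, 0.0856 and 0.0936 by limma. The second probe sets of mrpl19 and mrps31 gave -0.27 and -0.32. None of these differences passed the threshold in the fit with all arrays. Under 10 of 21 alternatives mrpl23 did, with adjusted p-values of 0.0252 to 0.0486 by limma.

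At the other end of the mrp group, mrpl17 had 7.54, 7.55, 7.50 and 7.56 in resected and 7.28, 7.20, 7.62 and 7.06 in control samples. Its resected values were nearly equal and lay inside the control range, and the difference of 0.25 ± 0.11 had an adjusted p of 0.222 by limma. Without control replicate 3, the highest of its control values, mrpl17 passed the threshold as higher, with a difference of 0.36. The next members in that direction were mrps6 (0.19 ± 0.09), mrps30 (0.18 ± 0.11), mrpl36 (0.12 ± 0.08) and mrpl43 (0.12 ± 0.09), none past the threshold. For mrpl12, whose protein forms the stalk of the large subunit, the difference was 0.04 ± 0.08, with a 95% interval of -0.14 to 0.23. For mrpl4 the values were 10.13, 10.14, 10.16 and 10.08 in resected and 10.35, 10.19, 10.92 and 10.52 in control samples (-0.37 ± 0.14, adjusted p = 0.141 by limma), without overlap, and for mrps34 the difference was -0.12 ± 0.13.

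**Figure D2:**
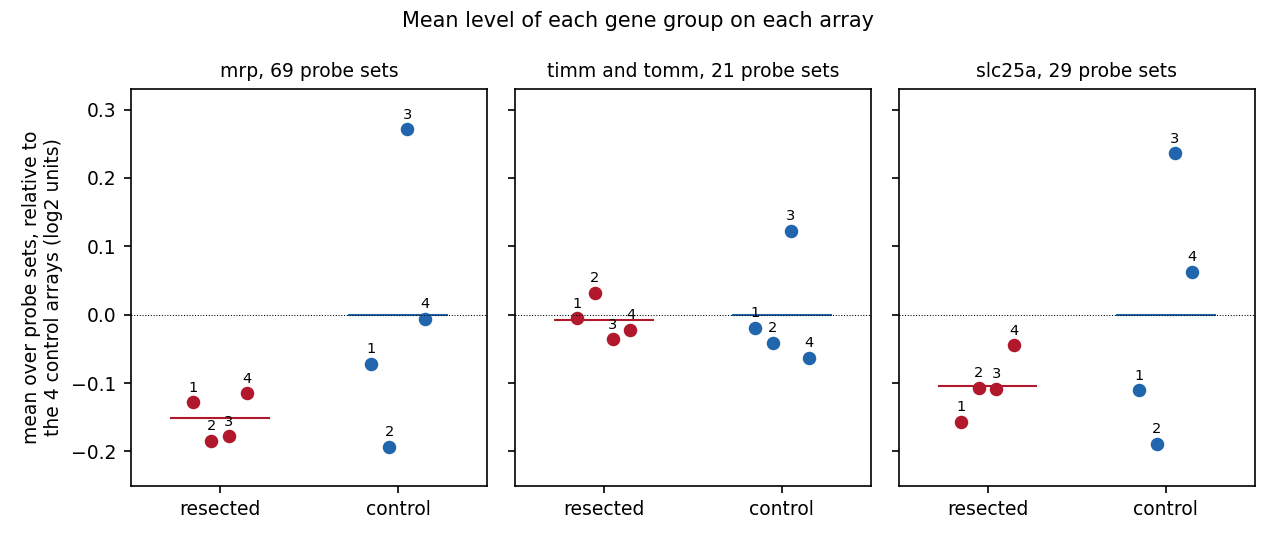
Mean over the probe sets of each group on each array, in log2 units relative to the mean of the 4 control arrays, with replicate numbers above the points and the group mean as a line. For mrp the resected arrays lie between -0.18 and -0.11, within the control range of -0.19 to 0.27, and control replicate 3 is the highest array in all 3 panels.

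The mrp genes moved together across the control arrays, and 1 control array carried much of their difference. Averaged over the 69 probe sets and relative to the control mean, the resected arrays 1 to 4 stood at -0.13, -0.18, -0.18 and -0.11, against -0.07, -0.19, 0.27 and -0.01 on control arrays 1 to 4. Control replicate 2 was thus as low as the lowest resected arrays, and the groups overlapped. Control replicate 3 had the highest control value for 66 of 69 probe sets (95.7%, against 24.5% of all probe sets), and control replicate 2 the lowest for 45 (65.2%, against 26.8%). The full control order, replicate 2 lowest, then 1, 4 and 3, was shared by 28 of 69 (40.6%, against 5.43% of all probe sets). Leaving out control replicate 3 brought the median difference to -0.08 (-0.05 over all probe sets) and the number of lower probe sets to 43 (62.3%). Leaving out control replicate 2 instead gave a median of -0.21, with 11 probe sets past the threshold as lower, where the calls over all probe sets also went up, to 4.24% lower and 6.13% higher. Without both, an alternative chosen after seeing the data, the median was -0.11, 49 of 69 probe sets were lower and 3 passed the threshold as lower (2.7% of all probe sets, with 4.83% higher). On the same arrays the leukocyte markers averaged 0.69 in control replicate 2 and -0.46 in control replicate 3, and the part of this in the result was not tested.

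Resected arrays also differed less among themselves in these genes. The SD over 4 arrays was smaller in resected than in control samples for 60 of 69 mrp probe sets (87.0%, against 64.7% of all probe sets), with median SDs of 0.09 in resected and 0.22 in control samples. Over all probe sets the medians were 0.12 in resected and 0.16 in control samples. For timm and tomm the control SD was larger for 18 of 21 probe sets (85.7%), and for slc25a for 19 of 29 (65.5%). No test was made of these spreads, since the genes of a group share their arrays.

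**Figure D3:**
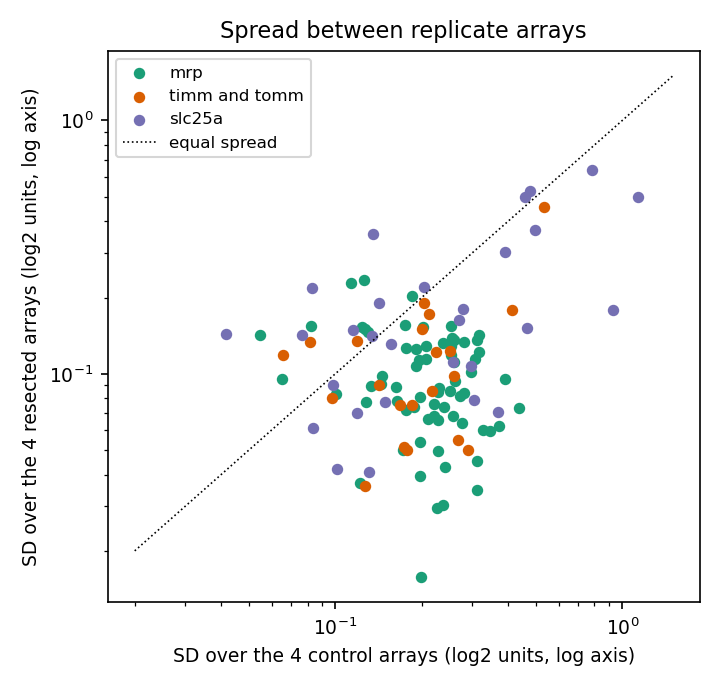
SD over the 4 resected arrays against SD over the 4 control arrays for each of the 119 probe sets, in log2 units on log axes, with the dotted line at equal spread. Points below the line, with less spread in resected samples, make up 60 of 69 mrp, 18 of 21 timm and tomm and 19 of 29 slc25a probe sets.

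In the import machinery no probe set of the 21 passed the threshold by limma, in either direction (4.28% higher and 2.57% lower over all probe sets). At an unadjusted p under 0.05 limma gave 4 lower and 0 higher (11.8% and 11.3% over all probe sets). A lower mean in resected samples was found for 11 of 21 probe sets (52.4%), with a median difference of -0.01, and the range was -0.37 to 0.54. With 1 probe set per gene the median was 0.001009, so the group had no direction that held across settings. Relative to the control mean, the array means were -0.01, 0.03, -0.04 and -0.02 in resected and -0.02, -0.04, 0.12 and -0.06 in control samples, with control replicate 3 again the highest.

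Still, 4 of the 21 probe sets were lower in every resected array than in any control array (19.0%, against 7.35% of all probe sets). In the other direction there were 0 (6.95% of all probe sets). These 4 also had the smallest p, which comes from the same values and adds no support. Of the 4, 2 belong to 1 gene. That gene is tomm20b, for a receptor of the TOM complex that binds the targeting signals of incoming proteins. Its first probe set had 8.87, 8.79, 8.86 and 8.76 in resected and 9.24, 8.90, 9.27 and 9.20 in control samples, a difference of -0.33 ± 0.10 (limma, 95% interval -0.55 to -0.12, adjusted p = 0.0663). The second had 9.35, 9.46, 9.44 and 9.45 in resected and 9.93, 9.50, 9.75 and 9.73 in control samples, a difference of -0.31 ± 0.10 (adjusted p = 0.0878 by limma). Both probe sets thus gave nearly the same difference and both missed the threshold. The co-ortholog tomm20a had a difference of -0.12 ± 0.09.

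The other TOM genes showed no shared direction. The second receptor tomm22 differed by 0.23 ± 0.12 and the pore tomm40 by 0.09 ± 0.10, while the related tomm40l differed by 0.28 ± 0.13 (adjusted p = 0.221 by limma). The small subunits tomm5 and tomm7 differed by -0.08 ± 0.12 and 0.05 ± 0.12. The highest difference of the group was that of tomm34, a cytosolic co-chaperone of precursor proteins, at 0.54 ± 0.28 (adjusted p = 0.270 by limma). It had 7.47, 8.12, 7.83 and 7.07 in resected and 7.19, 7.79, 6.61 and 6.74 in control samples, and the groups overlapped widely.

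In the TIM23 complex, the channel protein timm23a had 9.28, 9.37, 9.25 and 9.41 in resected and 9.81, 9.45, 9.77 and 9.50 in control samples. The groups did not overlap, and the difference was -0.31 ± 0.10 (adjusted p = 0.100 by limma). For timm44, which tethers the import motor to the channel, the values were 8.01, 7.96, 7.93 and 7.90 in resected and 8.32, 8.09, 8.73 and 8.16 in control samples (-0.37 ± 0.13, adjusted p = 0.117 by limma). Again no resected array reached the lowest control array. The partner channel protein timm17a differed by 0.00 ± 0.08 (95% interval -0.18 to 0.18), the receptor timm50 by 0.24 ± 0.12 and timm21 by 0.06 ± 0.18. Without control replicate 2, both tomm20b probe sets and timm23a passed the threshold as lower (4.24% of all probe sets did), and without any other single array none of the 21 did.

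The small TIM chaperones, which escort hydrophobic precursors across the intermembrane space, were spread around 0. The differences were 0.23 ± 0.12 for timm13, -0.11 ± 0.13 for timm8b, -0.05 ± 0.11 for timm9 and 0.02 ± 0.08 for timm8a. For timm29, a subunit of the TIM22 complex, it was -0.01 ± 0.08 (95% interval -0.19 to 0.18). The probe sets of timm8a and timm21 were among the lowest 25% of all probe sets by mean value. For timmdc1, an assembly factor of respiratory complex I, the 2 probe sets gave -0.15 and -0.07.

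The carrier family held the largest differences of the 3 groups, in the upward direction only on 2 probe sets of slc25a14 with low mean values. Without the 5 called probe sets its range was -0.92 to 0.25, against a highest value of 0.54 in the timm and tomm group. Of 29 slc25a probe sets, 3 passed the threshold as lower and 2, both of slc25a14, as higher (2.57% and 4.28% over all probe sets). At an unadjusted p under 0.05 limma gave 6 lower and 3 higher (11.8% and 11.3% over all probe sets). A lower mean in resected samples was found for 16 of 29 (55.2%, against 60.4% of all probe sets), with a median difference of -0.03, against -0.05 over all probe sets. The range ran from -1.31 to 1.05. Groups did not overlap for 2 probe sets in each direction (6.9%, against 6.95% higher and 7.35% lower among all probe sets). The array means were -0.16, -0.11, -0.11 and -0.04 in resected and -0.11, -0.19, 0.24 and 0.06 in control samples, and control replicate 3 was the highest control array for 20 of 29 probe sets (69.0%).

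The lowest value belonged to slc25a4, the ADP/ATP carrier of striated muscle in mammals, which exports ATP from the matrix in exchange for ADP. It had 7.34, 7.99, 7.59 and 8.55 on the resected arrays, against 9.02, 8.68, 9.82 and 9.16 on the control arrays. The highest resected value was just below the lowest control value. The means were 7.87 ± 0.53 in resected and 9.17 ± 0.48 in control samples (SD, n = 4 each), a difference of -1.31 ± 0.28 or 2.47-fold lower, with an adjusted p of 0.0208 by limma. Without resected replicate 1, 2 or 3 the adjusted p by limma was 0.0514, 0.0559 or 0.0639, and without control replicate 4 it was 0.0611. No other gene of the ADP/ATP carriers was among the probe sets with a single symbol.

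**Figure D4:**
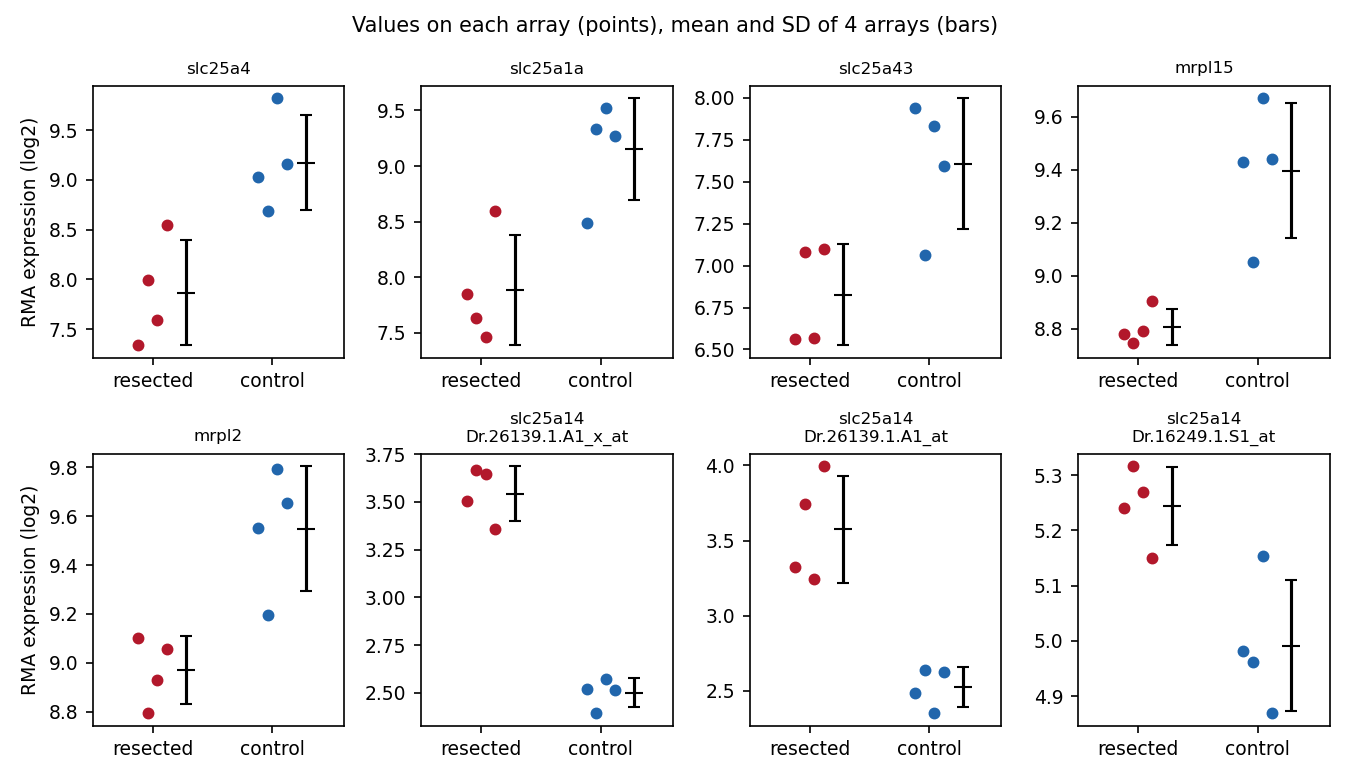
RMA expression in log2 units on each array for the 6 genes with a probe set past the threshold, with mean and SD of 4 arrays as bars and a separate scale in each panel. For slc25a4, mrpl15, mrpl2 and the first 2 slc25a14 panels the resected and control points do not overlap, while for slc25a1a and slc25a43 they do.

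Nearly as large was the fall of slc25a1a, for the citrate carrier, which passes citrate to the cytosol as a source of acetyl groups for lipid synthesis. The resected arrays gave 7.85, 7.63, 7.47 and 8.59 and the control arrays 8.48, 9.33, 9.52 and 9.27. Resected replicate 4 was above control replicate 1, so the groups overlapped by these 2 arrays. The difference was -1.27 ± 0.27 (limma, 95% interval -1.86 to -0.68, adjusted p = 0.0199), or 2.41-fold lower. The call was lost without resected replicate 2 or 3 (adjusted p = 0.0679 and 0.0596 by limma) and without control replicate 3 or 4 (0.0504 and 0.0634).

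The other carriers of organic acids did not pass the threshold. The oxoglutarate carrier slc25a11, part of the malate-aspartate shuttle, gave -0.28 ± 0.14 and -0.09 ± 0.14 on its 2 probe sets. Its partner in that shuttle, the aspartate/glutamate carrier slc25a12, gave 0.01 ± 0.14 (95% interval -0.29 to 0.32). The dicarboxylate carrier slc25a10b gave 0.06 ± 0.13, and slc25a20, which brings acylcarnitines into the matrix for fatty acid oxidation, gave -0.11 ± 0.13. The branched-chain amino acid carriers slc25a44a and slc25a44b stood at -0.01 ± 0.11 and 0.03 ± 0.10.

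For slc25a43, to which no role is given here, the resected arrays had 6.56, 7.08, 6.57 and 7.10 and the control arrays 7.94, 7.06, 7.83 and 7.60. Control replicate 2 was at the level of the 2 highest resected arrays. The difference was -0.78 ± 0.20 (limma, 95% interval -1.22 to -0.34, adjusted p = 0.0436), or 1.72-fold lower. It lost the call under the most alternatives of the 7: leaving out resected replicate 1, 2 or 3 gave an adjusted p of 0.108, 0.0682 or 0.119 by limma, and leaving out control replicate 1, 3 or 4 gave 0.0941, 0.0994 or 0.101.

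The gene that rose was slc25a14, a relative of the uncoupling proteins. On its first probe set, whose name ends in _x_at, the values were 3.50, 3.67, 3.64 and 3.36 in resected and 2.52, 2.39, 2.57 and 2.52 in control samples, a difference of 1.04 ± 0.09 (limma, 95% interval 0.84 to 1.24, adjusted p = 0.000109). On the second they were 3.32, 3.75, 3.24 and 3.99 in resected and 2.48, 2.64, 2.35 and 2.62 in control samples, a difference of 1.05 ± 0.16 (adjusted p = 0.00374 by limma). These 2 probe sets are named for 1 target sequence and are not independent, and the _x_at ending marks probes that may bind other transcripts. Both lie among the lowest 25% of all probe sets by mean value, where RMA values do not show whether a transcript was detected, so the size of the rise is not given as a fold. Both calls held without any single array. The third probe set had 5.24, 5.32, 5.27 and 5.15 in resected and 4.98, 4.96, 5.15 and 4.87 in control samples, a difference of 0.25 ± 0.09 that did not pass the threshold (adjusted p = 0.107 by limma). The other relative of the uncoupling proteins in the group, slc25a27, differed by -0.14 ± 0.09.

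Phosphate enters the matrix through slc25a3, present as 2 genes in zebrafish. For slc25a3a the values were 6.38, 6.28, 6.24 and 6.33 in resected and 6.44, 6.48, 6.64 and 6.50 in control samples, without overlap, but the difference of -0.21 ± 0.08 did not pass the threshold (adjusted p = 0.138 by limma). For slc25a3b the difference was -0.03 ± 0.08, with a 95% interval of -0.20 to 0.15.

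Of the carriers of iron, haem precursors and cofactors, 0 of 8 probe sets passed the threshold (6.85% of all probe sets did). The mitoferrin slc25a37, which imports iron for haem in red cells, differed by -0.05 ± 0.08 (95% interval -0.23 to 0.14) on a dim probe set, while 7 of 9 red cell markers were higher in the same samples. The glycine carrier slc25a38b, needed for haem synthesis, differed by 0.20 ± 0.11 (adjusted p = 0.309 by limma), and slc25a39, a carrier of glutathione, by 0.12 ± 0.16 and 0.11 ± 0.10 on its 2 probe sets. The folate carrier relative slc25a32a had 5.40, 5.47, 5.17 and 6.04 in resected and 5.48, 6.33, 6.60 and 6.44 in control samples (-0.69 ± 0.25, adjusted p = 0.123 by limma). Control replicate 1 lay apart from the other 3 controls, within the resected range, and without it slc25a32a passed the threshold as lower, at -0.94 (adjusted p = 0.0191 by limma). The remaining members were slc25a26 (-0.14 ± 0.14), which carries S-adenosylmethionine, slc25a17 (-0.14 ± 0.10), a peroxisomal cofactor carrier, and slc25a16 (0.06 ± 0.09).

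A few carriers varied so much between replicate arrays that no difference of moderate size could be seen. The pyrimidine nucleotide carrier slc25a33 had 9.82, 10.15, 10.36 and 9.22 in resected and 10.09, 8.65, 11.28 and 10.76 in control samples, a difference of -0.31 ± 0.48 with a 95% interval of -1.37 to 0.75. The calcium-regulated ATP-Mg/phosphate carrier slc25a25a had 7.07, 7.74, 8.05 and 6.64 in resected and 7.20, 6.09, 7.93 and 7.49 in control samples (0.20 ± 0.39). In both genes, control replicate 3 was the highest and control replicate 2 the lowest of the control arrays. For slc25a55b, to which no role is given here, the values were 6.36, 6.57, 6.34 and 6.71 in resected and 6.82, 6.45, 8.42 and 7.96 in control samples, a difference of -0.92 ± 0.37 (adjusted p = 0.167 by limma). Without control replicate 2 it passed the threshold as lower (adjusted p = 0.0305 by limma). For slc25a55a the difference was 0.12 ± 0.20 and for slc25a48, on a dim probe set, 0.18 ± 0.09.

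Several genes were measured by more than 1 probe set. There were 14 such genes with 30 probe sets, and in all 14 the probe sets of a gene differed in the same direction. The probe sets of a gene share the same arrays, so their agreement is no check on the difference between the groups. The gap between the lowest and highest difference of a gene had a median of 0.0845 and ran from 0.0115 for slc25a39 to 0.801 for slc25a14, where the probe sets with the larger differences are the dim ones.

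Genes that act beside these 3 groups but lie outside the prefixes were taken from a list of 159 symbols, of which 76 were measured. Of the 76 genes, 6 passed the threshold as lower and 0 as higher (2.57% and 4.28% over all probe sets), with a median difference of -0.09. With the probe sets of each gene averaged, 5 passed. A lower mean in resected samples was found for 50 of 76 (65.8%, against 60.4% of all probe sets). At an unadjusted p under 0.05 limma gave 17 lower and 8 higher (11.8% and 11.3% over all probe sets). Among 24 import partners, proteases and chaperones the median difference was 0.01, and 12 had a lower mean in resected samples. At an unadjusted p under 0.05 limma gave 4 lower and 5 higher in this list. Past the threshold was dnajc19, a co-chaperone of the TIM23 import motor. It had 7.78, 7.70, 7.57 and 7.96 in resected and 8.67, 8.26, 8.61 and 8.41 in control samples (-0.74 ± 0.12, adjusted p = 0.00467 by limma). Its groups did not overlap. The motor subunit pam16 and the channel tether timm44, which act with it, did not pass the threshold (-0.24 ± 0.13 and -0.37 ± 0.13). The second smallest p of the list was that of the chaperone hspd1, which was higher in resected samples (0.65 ± 0.19, adjusted p = 0.0682 by limma).

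Among 20 translation factors, tRNA ligases and further ribosomal proteins, 0 passed the threshold by limma (6.85% of all probe sets did), with a median difference of -0.17. At an unadjusted p under 0.05 limma gave 5 lower and 3 higher (11.8% and 11.3% over all probe sets). The smallest p-values were those of the tryptophanyl-tRNA ligase wars2 (-0.34 ± 0.11, adjusted p = 0.100) and of malsu1, which takes part in assembly of the large ribosomal subunit (-0.35 ± 0.11, adjusted p = 0.102, both by limma). Among 10 genes for mitochondrial DNA, transcription and RNA, mterf4, which with a methyltransferase takes part in assembling the mitochondrial ribosome, fell by 0.63 on the log2 scale. It had 6.02, 5.73, 5.94 and 6.04 in resected and 6.52, 6.49, 6.83 and 6.40 in control samples (adjusted p = 0.00898 by limma), and the groups did not overlap. The methyltransferase itself, nsun4, differed by -0.28 ± 0.09 (adjusted p = 0.0931).

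Among 11 carriers and channels without the slc25a prefix the median difference was -0.04, and 6 had a lower mean in resected samples. Past the threshold was ucp3, the uncoupling protein of muscle in mammals. It had 8.36, 8.67, 8.22 and 8.91 in resected and 9.11, 9.01, 10.21 and 10.04 in control samples. The difference was -1.05 ± 0.27 (adjusted p = 0.0462 by limma), and the call was lost without resected replicate 1, 2 or 3 or control replicate 3 or 4 (adjusted p between 0.0924 and 0.124) and with a robust variance prior (0.0734). Among 11 regulators of mitochondrial content, 3 passed the threshold as lower and 0 as higher (2.57% and 4.28% over all probe sets). In this list 7 had a lower mean in resected samples, the median difference was -0.19 and the highest 0.38. The mitophagy receptor bnip3 differed by -1.03 ± 0.14 (adjusted p = 0.00165) and the transcription factors yy1a and yy1b by -0.41 ± 0.10 and -0.37 ± 0.09 (adjusted p = 0.0459 and 0.0417, all by limma). Calls for bnip3, dnajc19 and mterf4 held without any single array. With 1 array left out, the yy1a call held only without control replicate 3 (adjusted p = 0.0492 by limma). Without any other array it was lost, with adjusted p-values up to 0.127. The yy1b call held only without resected replicate 4 or control replicate 2 (0.0324 and 0.0222 by limma). Without any other array it was lost, with adjusted p-values up to 0.122. The yy1a call was also lost when the variance prior followed intensity (0.0614) and with array weights (0.0514). The yy1b call was lost in the first of these (0.0624), all by limma. Averaged over its probe sets, yy1a differed by only -0.23 and did not pass the threshold (adjusted p = 0.246 by limma).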

How the data were processed

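Values were taken from the table the authors deposited, in log2 units. Per the submitters' processing notes, they were made with affy and RMA (background correction, quantile normalization, probe summarisation), without versions. RMA gives no detection call. All 8 columns were matched to samples by their labels, and 0 were unused. After 115 manufacturer's control probe sets were left out, 15502 were fitted with limma 3.58.1 in R 4.3.3 (lmFit, eBayes), resected minus control, two-sided, with 4 arrays a group and no block. Adjustment (Benjamini-Hochberg) covered all of them. Intervals are the fit's 95% intervals, whose precision is limited by the number of arrays. The fit was tested on simulated data. The series describes the samples as biological replicates, and p-values measure the spread between pools.

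Symbols came from the platform annotation, in which 135 probe sets had several and 4572 none. All 119 members matched a gene table (assembly GRCz12tu) by identifier, and 0 symbols were replaced. The build behind the array is not named, so no coordinates are given. Probes can bind close paralogs, so co-orthologs are uncertain as to the copy measured. Named were all members past the threshold, those with the smallest p in each direction, those with the highest means and the sub-families by complex or substrate. From the other list, those past the threshold were named, and wars2 and malsu1 for the smallest p of their sublist. Chosen after their values were seen were hspd1, pam16, nsun4, mrpl44, mrpl9, mrpl32, mrpl40 and the remaining carriers. Members and lists were chosen with earlier results of these data known.

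Replicate numbers showed no clear pairing of the samples, and the labels do not say whether they pair. Same-numbered deviations correlated at 0.12, 0.14, -0.01 and -0.16, and differently numbered ones at -0.22 to 0.30. Alternatives were the replicate block, variance prior, array weights, normalization, filters, probe set choice and leaving out arrays. Promoter motifs were not analysed here.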

Additional observations from a re-analysis of the deposited data

Results flagged for a closer look

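In 5 of 162 sets of 4 values tested among the named genes, 1 array lay far from the other 3 by Dixon's test at the 95% level. Chance alone gives about 1 in 20. For mrps30, control replicate 3 had 8.24, while the other 3 control arrays lay between 7.853 and 7.864. For tomm40l, control replicate 2 had 7.609, while the other 3 lay between 7.195 and 7.209. Control replicate 2 had 8.273 for mrpl9 (others 8.392 to 8.416), and control replicate 3 had 6.24 for slc25a10b (others 5.675 to 5.772). Resected replicate 4 had 8.589 for tomm40 (others 8.843 to 8.88). None of these genes passed the threshold.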

How the results depend on the processing

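Over the 71 probe sets of the named members and 10 other named genes, without hspd1, 1542 of 1674 alternative values kept their direction and their side of the threshold. A further 62 lost the call, 31 gained one and 39 changed sign. Only probe sets called with all arrays could lose a call, so the share kept is no measure of how the calls held. Of 21 alternatives, yy1a lost the call in 12, yy1b in 10, slc25a43 and ucp3 in 8 each and bnip3 in 0. Settings of the block, the variance prior and the filters leave a difference as it was and could not change its sign. The 39 belong to 19 member probe sets, 0 of them called. With 1 array left out their differences ran from -0.01367 to 0.08344 (mrpl12), -0.02604 to 0.04669 (timm17a), -0.07926 to 0.2459 (timm21), -0.02611 to 0.06932 (timm8a), -0.2231 to -0.0252 (timm8b), -0.1084 to 0.05872 (timm9), -0.06224 to 0.03988 (timm29), -0.1291 to 0.005551 (timmdc1), -0.1541 to 0.02172 (tomm5), -0.0552 to 0.1257 (tomm7), -0.06563 to 0.008921 (slc25a3b), -0.2016 to 0.02576 (slc25a11), -0.08825 to 0.1284 (slc25a12), -0.1647 to 0.4489 (slc25a25a), -0.8236 to 0.05133 (slc25a33), -0.0552 to 0.2154 (slc25a39), -0.08651 to 0.08812 (slc25a44a), -0.01952 to 0.09513 (slc25a44b) and -0.02007 to 0.3392 (slc25a55a). Array weights gave 0.01687 for slc25a44a and a further quantile normalization -0.02205 for slc25a12. Without control replicates 2 and 3 together, timm8a stood at -0.03859, timm8b at 0.02302, timm9 at 0.0162, timmdc1 at 0.02933, slc25a3b at 0.002292 and slc25a55a at -0.1172. Without variance moderation the counts were 0 mrp lower, 1 slc25a higher, 0 slc25a lower, 1 other mitochondrial gene (bnip3), and 224 higher and 75 lower of all probe sets. A further quantile normalization gave 4 mrp and 1 timm and tomm probe sets lower. With the lowest 25% or 50% of probe sets by mean left out, or with 1 probe set per gene, 0 slc25a probe sets were higher, since these settings leave out both called slc25a14 probe sets. With probe sets averaged per gene, or without _x_at and _s_at probe sets, 1 was higher. Leaving out 1 array at a time gave 0 to 11 mrp lower, 0 to 1 mrp higher, 0 to 3 timm and tomm lower, 0 to 4 slc25a lower, 3 to 9 other mitochondrial genes, and 394 to 951 higher and 151 to 657 lower of all probe sets. The timm and tomm median ran from -0.07409 to 0.005551 and the slc25a median from -0.08478 to 0.008921. The timm and tomm median was 0.001009 with 1 value per gene. Without control replicates 2 and 3, chosen after seeing the data, 1 timm and tomm probe set was higher and 2 were lower (4.83% and 2.7% over all probe sets). The timm and tomm median was then 0.02302. The replicate block, for numbers that showed no clear pairing, gave 2 slc25a probe sets higher and 2 lower. It lost the calls of slc25a43 and yy1b (adjusted p = 0.0857 and 0.0637 by limma). Other causes were not tested.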
